A study of Mus musculus with 6 samples.

Results

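Open chromatin was compared in mouse embryonic fibroblasts (MEFs) at passage 1 in hypoxia and in normoxia, as 99527 autosomal open regions. All 4 ATAC-seq libraries of the series held 170588 open regions, counted on all chromosomes. The 99527 regions are the peaks of the library labelled Hyp-Pro (hypoxia, 3% oxygen) and of the library labelled Norm-Pro (normoxia, 20% oxygen), with peaks that overlap by 1 bp or more joined into 1 region. Both are from wild-type C57BL/6J cells of embryos at E13.5 that were grown in the same medium at passage 1 and differ, by their labels, in oxygen alone. Each condition is 1 library, without replicates, so the conditions were not tested against each other. The other 2 ATAC-seq libraries, of MEFs immortalized in 3% oxygen (Hyp-Imm) and of MEFs senescent in 20% oxygen (Norm-Sen), were used to ask where else a passage 1 region is open. Every interval given is a 95% exact Clopper-Pearson interval, which covers counting error only.

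In ATAC-seq the Tn5 transposase inserts adapters into accessible DNA, and peaks lie at promoters, enhancers and other stretches with few nucleosomes. Cells sense oxygen through prolyl hydroxylases (Egln1, Egln2 and Egln3) and an asparaginyl hydroxylase (Hif1an) that act on the α subunits of the hypoxia-inducible factors (HIF). With little oxygen the α subunits escape degradation through Vhl, pair with Arnt and bind DNA at hypoxia response elements, where they raise transcription of genes of glycolysis, iron and matrix metabolism and blood vessel growth.

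The label and the name of the deposited file disagree for each of these libraries. The file of the library labelled Hyp-Pro carries the name of normoxia at passage 1, the file labelled Norm-Pro that of immortalized cells in hypoxia, the file labelled Hyp-Imm that of senescent cells in normoxia and the file labelled Norm-Sen that of hypoxia at passage 1. Groups follow the labels here. By the file names the library labelled Hyp-Pro would be the normoxic one, so that its regions would stand on the other side of every comparison of oxygen. The library labelled Norm-Pro would then be of immortalized cells, so that the main comparison would differ in passage as well as in oxygen. The hypoxic library of passage 1 would be the one labelled Norm-Sen. The peak names also carry a tag, 25 in Hyp-Pro and Hyp-Imm and 1h in Norm-Pro and Norm-Sen, which no source used here explains and which cannot be told apart from oxygen. The library labelled Hyp-Pro held 47523 peaks, 45139 of them on autosomes, and Norm-Pro 69122, of which 68239 were autosomal. From the steps of the fold values the background was estimated at 0.956 reads per position in Hyp-Pro and 1.24 in Norm-Pro, which puts the depth of Hyp-Pro at 77.2% of that of Norm-Pro. For that reason the comparison was also made with the 45139 peaks of highest −log10 q in each library, called the equal number below, and peaks were ranked within their own library from 1, the highest −log10 q. The passage 1 libraries had open promoters at some genes of fibroblasts and at few genes of blood cells. Of 20 fibroblast and matrix genes 7 (35%) had a promoter peak in both libraries, against 43.1% of all genes. Among the 7 were vimentin (Vim), fibronectin (Fn1) and the collagen Col1a2. A further 5 (25%, against 39.0% of all genes) had none in either, Col3a1, Col5a2, Col6a1, Lum and Fap. Of 9 blood cell markers 8 (88.9%) had no promoter peak in either library, Ptprc, Csf1r, Itgam and Hba-a1 among them. Spi1 had a peak in Norm-Pro alone (rank 21823).

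The following sequences are examples of motif matches in the main sets of regions and do not show how common a motif was. Each is 200 bp at the centre of a region, read from the RefSeq reference genome (GRCm38) in 5′ to 3′ direction, and was taken as the strongest region of its set that holds the motif and is not mostly repeat. For AP-1 in Hyp-Pro alone the 2 strongest are shown, Jak1 and then Itgav. An exception is the promoter of the lysyl hydroxylase Plod1, which is shown as the strongest Norm-Pro-only promoter among hypoxia response genes. Capitals mark TGANTCA (AP-1) in the Jak1, Itgav and Gdi2 regions, GGGGCGGG (Sp/Klf) in that of Bcl2l11, CCGGAAG (ETS) in that of Zfp617, TGACGTCA (CRE) in that of Bcas2 and GCGTG (the core of a hypoxia response element) in that of Plod1, each on either strand. For the promoters of Bcl2l11, Zfp617 and Bcas2 the other library had no peak within 1 kb.
Jak1 intron, Hyp-Pro only, chr4:101202761-101202960, plus strand: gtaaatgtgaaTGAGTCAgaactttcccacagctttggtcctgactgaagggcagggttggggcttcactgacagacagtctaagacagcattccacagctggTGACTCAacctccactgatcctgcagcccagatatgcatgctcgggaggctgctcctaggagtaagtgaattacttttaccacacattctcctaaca
near Itgav, Hyp-Pro only, chr2:83714831-83715030, plus strand: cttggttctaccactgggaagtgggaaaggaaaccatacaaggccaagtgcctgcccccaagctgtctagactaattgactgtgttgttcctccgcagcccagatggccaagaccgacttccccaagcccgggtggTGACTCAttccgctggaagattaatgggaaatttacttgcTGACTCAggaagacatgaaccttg
nearest to Gdi2, shared, chr13:3373098-3373297, plus strand: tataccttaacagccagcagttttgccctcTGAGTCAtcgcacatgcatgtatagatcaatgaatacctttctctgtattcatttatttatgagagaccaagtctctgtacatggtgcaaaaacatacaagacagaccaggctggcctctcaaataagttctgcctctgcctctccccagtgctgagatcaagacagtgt
Bcl2l11 promoter, Hyp-Pro only, chr2:128125877-128126076, plus strand: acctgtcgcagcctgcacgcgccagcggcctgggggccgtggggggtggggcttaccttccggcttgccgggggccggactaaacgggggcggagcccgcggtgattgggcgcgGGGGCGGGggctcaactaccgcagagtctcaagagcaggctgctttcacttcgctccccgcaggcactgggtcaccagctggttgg
Zfp617 promoter, Norm-Pro only, chr8:71922632-71922831, plus strand: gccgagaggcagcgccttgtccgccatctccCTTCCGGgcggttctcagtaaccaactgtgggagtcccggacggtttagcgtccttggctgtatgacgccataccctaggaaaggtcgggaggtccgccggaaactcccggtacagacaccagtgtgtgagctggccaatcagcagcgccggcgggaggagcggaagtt
Bcas2 promoter, Norm-Pro only, chr3:103171658-103171857, plus strand: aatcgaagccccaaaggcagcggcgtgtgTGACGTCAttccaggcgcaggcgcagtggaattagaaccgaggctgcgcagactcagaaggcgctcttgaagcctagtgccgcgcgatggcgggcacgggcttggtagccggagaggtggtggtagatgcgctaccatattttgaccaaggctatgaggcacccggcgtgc
Plod1 promoter, Norm-Pro only, chr4:147936692-147936891, plus strand: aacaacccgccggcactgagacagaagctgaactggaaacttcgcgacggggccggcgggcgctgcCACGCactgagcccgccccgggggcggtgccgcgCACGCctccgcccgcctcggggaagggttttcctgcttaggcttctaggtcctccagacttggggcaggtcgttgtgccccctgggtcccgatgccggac

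At passage 1 the libraries shared 12445 open regions (12.5%), whereas 31886 were open in Hyp-Pro alone (32.0% of all regions) and 55196 in Norm-Pro alone (55.5%). With the equal number of peaks the one-library sets became even, with 33301 regions in Hyp-Pro alone (42.7%) and 33666 in Norm-Pro alone (43.1%), and 11065 were shared (14.2%). A shared region was wide, with a median of 260 bp, against 111 bp for Hyp-Pro-only and 112 bp for Norm-Pro-only regions. This width follows in part from the definition, since a shared region joins overlapping peaks of both libraries.

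The strong peaks were common to both libraries and the weak ones were not. Of the 500 strongest Hyp-Pro peaks 98.8% overlapped a Norm-Pro peak, and of the 500 strongest Norm-Pro peaks 98.4% overlapped a Hyp-Pro peak. The share was 75.9% for Hyp-Pro peaks and 78.3% for Norm-Pro peaks of rank 2001 to 5000. At rank 10001 to 20000 it was 28.5% for Hyp-Pro peaks and 21.8% for Norm-Pro peaks, and at rank 30001 to 40000 14.9% for Hyp-Pro peaks and 11.9% for Norm-Pro peaks. The 6 shared regions with the best mean rank lay in introns or between genes, and 4 held the same rank, 1 to 4, in both libraries. These were the regions in an intron nearest to Filip1l (chr16:57391368-57391732), between genes nearest to Gm8797, between genes nearest to Rpusd4, and 88429 bp from the start of Axin2, a target and inhibitor of Wnt signalling. The other 2 lay in introns nearest to the Mediator kinase gene Cdk8 and to Txndc11, and all 6 also had a peak in Hyp-Imm and in Norm-Sen.

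**Figure D1:**
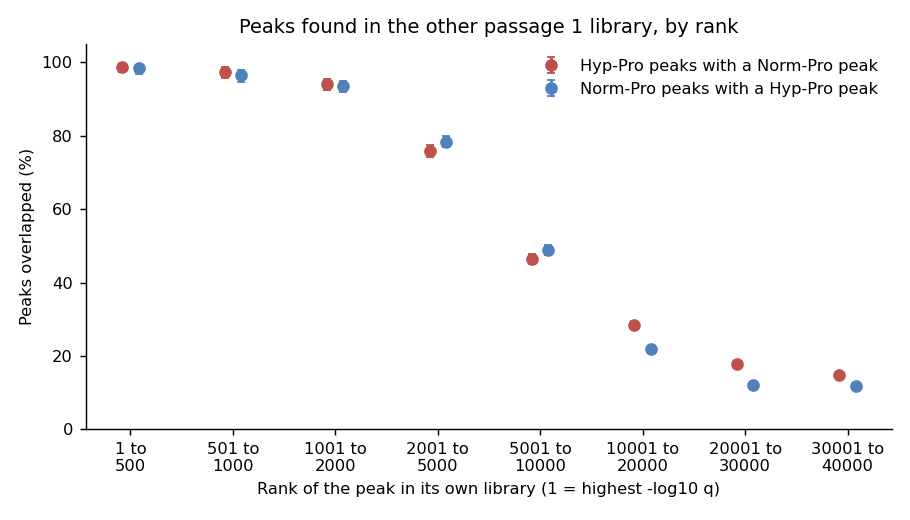
Percent of the peaks of 1 passage 1 library that overlap a peak of the other by 1 bp or more (vertical axis), by the rank of the peak in its own library (horizontal axis), for Hyp-Pro peaks in red and Norm-Pro peaks in blue, with 95% exact intervals. The share lies at 98.8% for Hyp-Pro and 98.4% for Norm-Pro in the first 500 peaks and at 14.9% for Hyp-Pro and 11.9% for Norm-Pro at rank 30001 to 40000.

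Promoters carried most of the agreement. Of 19377 regions at promoters, meaning less than 1 kb from where transcription of a protein-coding gene starts (TSS), 43.6% were shared, 23.3% open in Hyp-Pro alone and 33.1% in Norm-Pro alone. Of 80150 regions outside promoters only 4.99% were shared, with 34.1% in Hyp-Pro alone and 60.9% in Norm-Pro alone. Seen from the sets, 14.2% (13.8 to 14.6) of Hyp-Pro-only regions and 11.6% (11.3 to 11.9) of Norm-Pro-only regions lay at a promoter, against 67.9% of shared ones. This order of the one-library sets was the same with the equal number of peaks, at 15.5% in Hyp-Pro and 13.49% in Norm-Pro, but it turned among peaks with a −log10 q of at least 5, with 32.7% of Hyp-Pro-only and 39.3% of Norm-Pro-only regions at a promoter. Introns held 33.7% of Hyp-Pro-only and 33.5% of Norm-Pro-only regions. Stretches between genes held 48.3% of Hyp-Pro-only and 51.2% of Norm-Pro-only regions.

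**Figure D2:**
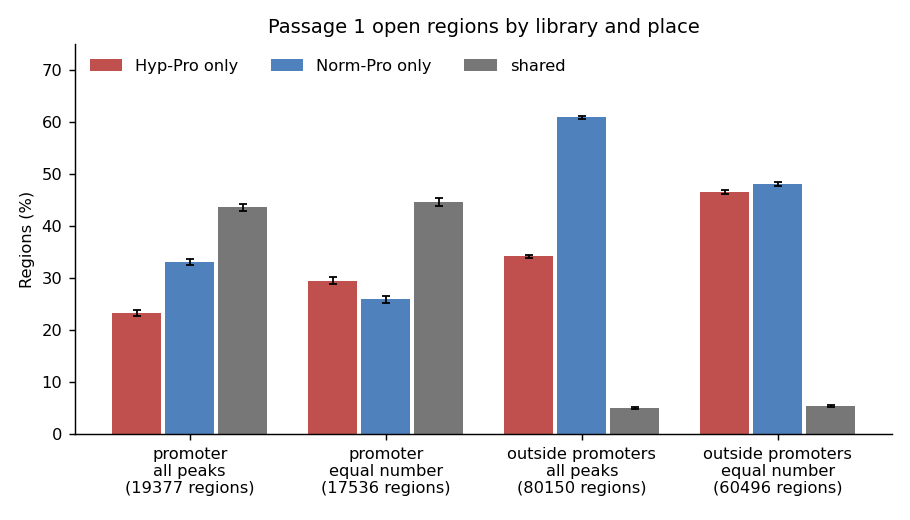
Percent of open regions (vertical axis) that are open in Hyp-Pro alone (red), in Norm-Pro alone (blue) or in both (grey), at promoters and outside them, with all peaks and with the equal number of peaks per library; lines are 95% exact intervals. Shared regions are 43.6% of promoter regions and 4.99% of the rest.

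Among strong peaks, too, those outside promoters were missing from the other library more often. Of the 5000 strongest Hyp-Pro peaks 801 (16.0%) had no Norm-Pro peak, and of the 5000 strongest Norm-Pro peaks 739 (14.8%) had no Hyp-Pro peak. At promoters these were 238 of 3711 Hyp-Pro peaks (6.41%) and 361 of 3995 Norm-Pro peaks (9.04%). Outside promoters they were 563 of 1289 Hyp-Pro peaks (43.7%) and 378 of 1005 Norm-Pro peaks (37.6%). Many one-library promoter regions were next to a peak of the other library: 53.3% of the Hyp-Pro-only ones had a Norm-Pro peak within 500 bp, and 42.0% of the Norm-Pro-only ones a Hyp-Pro peak. Outside promoters this held for 6.38% of Hyp-Pro-only and 3.80% of Norm-Pro-only regions.

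The strongest promoter region in Hyp-Pro alone was that of Ccsap, a microtubule-binding protein of centrioles and spindles (chr8:123859402-123859716, −log10 q 17.3, rank 364). It was followed by Unc119b, which carries lipid-modified proteins to cilia, and by Dedd, a death effector domain protein. The nearest Norm-Pro peak was 239 bp from the Ccsap region, 432 bp from that of Unc119b and 328 bp from that of Dedd, so that both libraries had a peak at these genes. Others of the 10 strongest had no Norm-Pro peak within 1 kb. These were Fads1, a desaturase of polyunsaturated fatty acids (rank 786), Sipa1l1, a Rap GTPase-activating protein (rank 928, nearest Norm-Pro peak 27257 bp away), Mboat1, a lysophospholipid acyltransferase (rank 1273), and Bcl2l11, which encodes the pro-apoptotic protein BIM (rank 1391). Dlg4, Zfp131 and Atf7ip2 made up the 10, each with a Norm-Pro peak 56 to 178 bp away.

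In Norm-Pro alone the strongest promoter region was that of Dcaf12, a substrate receptor of a ubiquitin ligase (chr4:41314813-41315143, −log10 q 19.9, rank 212), with a Hyp-Pro peak 242 bp away. Next came Wtap, a subunit of the RNA m6A methyltransferase (rank 322), and Eid1 (rank 338). A Hyp-Pro peak lay 115 bp from the Wtap region and 62 bp from that of Eid1. No Hyp-Pro peak lay within 1 kb of the regions of the Fanconi anaemia gene Fancf (chr7:51862170-51862429, rank 463), the zinc finger gene Zfp617 (rank 487), the cardiolipin acyltransferase Lclat1 (rank 718) and the endosomal recycling gene Vps35l (rank 723). Tmem80, Ing3, a subunit of an acetyltransferase complex, and Rnf130 completed the 10, each with a Hyp-Pro peak 51 to 298 bp away.

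Outside promoters and within 100 kb of a TSS the strongest Hyp-Pro-only region lay in an intron nearest to Jak1, a kinase of cytokine receptors (chr4:101202765-101202957, −log10 q 17.2, rank 375), and also had a peak in Hyp-Imm and in Norm-Sen. The region 9380 bp from a start site of the integrin subunit gene Itgav (chr2:83714845-83715017, rank 688) was likewise open in both late libraries. Other Hyp-Pro-only regions of this kind lay between genes nearest to Lsamp, Chst2 and Vamp9. Further ones lay in introns nearest to Spred2, an inhibitor of Ras signalling, to the end-joining factor Nhej1 and to Ncf4, a subunit of the phagocyte NADPH oxidase. Norm-Pro-only regions under the same limits lay near Sec31a, which encodes a subunit of the COPII vesicle coat (chr5:100429424-100429892, rank 585), and near Olfr545. Others lay in introns nearest to Rabgap1l, Appl2 and Vxn, and in an exon nearest to the integrin subunit gene Itgb7 (rank 797). The Itgb7 region had a peak in Hyp-Imm and in Norm-Sen, and the Sec31a region in Norm-Sen alone.

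By gene, 1262 of 20722 autosomal protein-coding genes (6.09%) had a promoter peak in Hyp-Pro alone and 2442 (11.8%) in Norm-Pro alone, 8940 (43.1%) had one in both and 8078 (39.0%) in neither. With the equal number of peaks 1721 genes (8.31%) were in Hyp-Pro alone, 1858 (8.97%) in Norm-Pro alone and 8481 (40.9%) in both. Among the 8940 genes open in both, the strongest promoter peak had the higher rank percentile in Hyp-Pro for 35.4% and in Norm-Pro for the others. Percentiles were taken over all 45139 Hyp-Pro and all 68239 Norm-Pro autosomal peaks, so that an equal rank gives the higher percentile in Norm-Pro. The part of list length in the 35.4% was not tested. Counts of this kind in the gene lists are read against that share. The gene lists were chosen with earlier results of these data known and are described by their counts.

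The oxygen-sensing machinery was open in both libraries. Of its 11 genes 9 had a promoter peak in both (43.1% of all genes did), Hif1an in Hyp-Pro alone (6.09% of all genes) and Egln2 in Norm-Pro alone (11.8% of all genes). The promoter peak of Hif1a, the oxygen-regulated α subunit, had rank 3361 in Hyp-Pro and rank 101 in Norm-Pro. That of Egln1, the main HIF prolyl hydroxylase, had rank 17014 in Hyp-Pro and 658 in Norm-Pro, and that of Epas1, which encodes HIF-2α, 28454 in Hyp-Pro and 4489 in Norm-Pro. The order was the other way for Arnt, the common partner subunit, with rank 1351 in Hyp-Pro and 3549 in Norm-Pro, and for Vhl, with rank 7212 in Hyp-Pro and 50971 in Norm-Pro, where the equal number of peaks left it in Hyp-Pro alone. Of the 9 genes 3 had the higher percentile in Hyp-Pro. The Hif1an peak had rank 27659 in Hyp-Pro and the Egln2 peak rank 14608 in Norm-Pro.

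None of 28 hypoxia response genes had a promoter peak in Hyp-Pro alone (6.09% of all genes), 4 had one in Norm-Pro alone (14.3%, near the 11.8% of all genes), 17 in both (60.7%, against 43.1% of all genes) and 7 in neither, and the counts in one library alone were the same with the equal number of peaks. The 4 were Plod1 (rank 3865 in Norm-Pro), Pfkfb4, which makes the activator of phosphofructokinase (rank 9531), Lox, the collagen cross-linking lysyl oxidase (rank 19587), and the carbonic anhydrase Car12 (rank 30242). Vegfa, the vascular growth factor, was among the 7 with no promoter peak, together with Adm, Car9, Loxl2, Edn1, Stc2 and Ndufa4l2. Of the 17 open in both, 8 had the higher percentile in Hyp-Pro and 9 in Norm-Pro. P4ha1, a collagen prolyl hydroxylase, had rank 171 in Hyp-Pro and 2958 in Norm-Pro. Ero1l, an oxidase of protein folding, had rank 682 in Hyp-Pro and 5534 in Norm-Pro. Higd1a, a mitochondrial protein, had rank 2346 in Hyp-Pro and 656 in Norm-Pro, and the peak near the Epo gene, which encodes erythropoietin, rank 12297 in Hyp-Pro and 3133 in Norm-Pro.

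**Figure D3:**
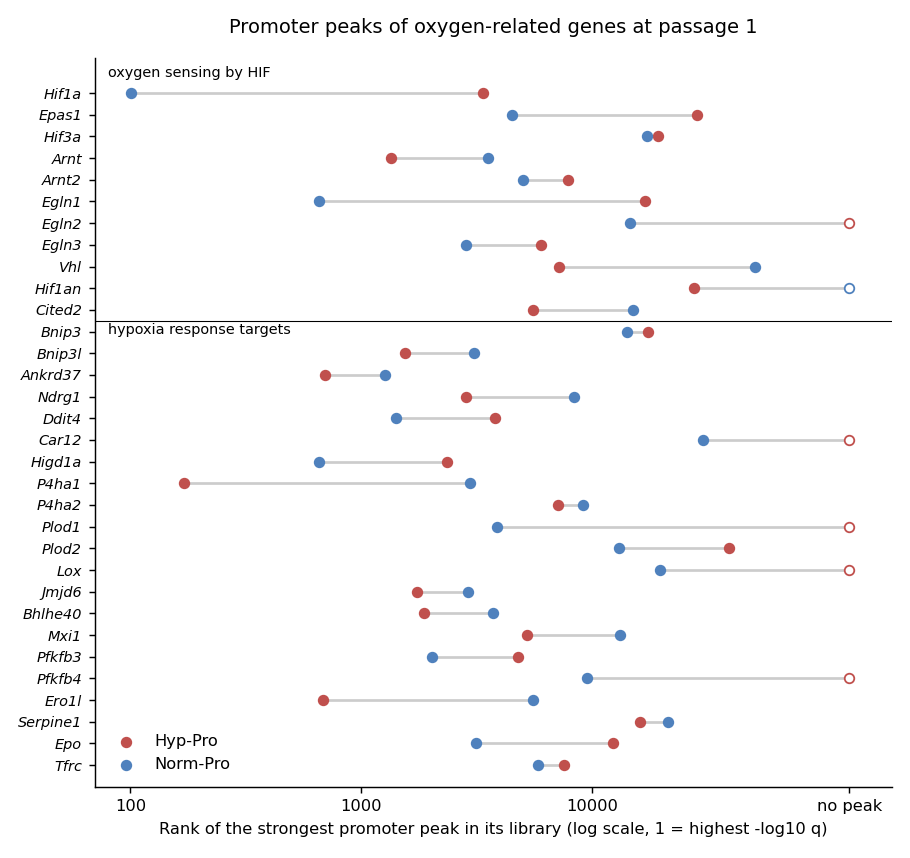
Rank of the strongest promoter peak in its own library (horizontal axis, log scale, 1 is the highest −log10 q) for genes of oxygen sensing and hypoxia response with a promoter peak in at least 1 library, Hyp-Pro in red and Norm-Pro in blue; an open circle marks no peak. Hif1a stands at 3361 in Hyp-Pro and 101 in Norm-Pro, P4ha1 at 171 in Hyp-Pro and 2958 in Norm-Pro, and 4 response genes have a peak in Norm-Pro alone.

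Genes of energy metabolism were mostly open in both libraries. Over all genes 43.1% were open in both, 6.09% in Hyp-Pro alone and 11.8% in Norm-Pro alone. Of 20 glycolysis genes 16 were open in both, among them Ldha, the lactate dehydrogenase subunit (rank 3852 in Hyp-Pro, 2619 in Norm-Pro), and Pdk1, which restrains pyruvate oxidation (rank 236 in Hyp-Pro, 652 in Norm-Pro). Triose phosphate isomerase (Tpi1) had a promoter peak in Hyp-Pro alone (rank 25979), and the enolase Eno2 (rank 17213) and the aldolase Aldoc (rank 50268) in Norm-Pro alone. Of 18 genes of mitochondrial respiration 12 were open in both, Cox7a1 in Hyp-Pro alone, and Sdha, Ndufb8 and Ndufa9 in Norm-Pro alone. Of 21 antioxidant genes 19 were open in both and the cystine transporter gene Slc7a11 in Norm-Pro alone (rank 26260). Of 18 demethylases of histones and DNA that use oxygen 16 were open in both and Kdm8 in Norm-Pro alone (rank 4259).

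Cell cycle inhibitors and p53 targets were mostly open in both libraries, at 16 of 18 genes, with Zmat3 in Norm-Pro alone (rank 22961) and none in Hyp-Pro alone. The shares of all genes were 43.1% in both, 6.09% in Hyp-Pro alone and 11.8% in Norm-Pro alone. Cdkn2a, which encodes p16INK4a and p19ARF, had rank 10181 in Hyp-Pro and 8797 in Norm-Pro, its neighbour Cdkn2b rank 28205 in Hyp-Pro and 826 in Norm-Pro, and Cdkn1a, which encodes p21, rank 11648 in Hyp-Pro and 9196 in Norm-Pro. Of 26 cell cycle and replication genes 19 were open in both. The cyclin gene Ccnd1 was open in Hyp-Pro alone (rank 11794), and the anaphase gene Cdc20 (rank 4071), the helicase gene Mcm6 (rank 6855), Aurkb, Top2a and Plk1 in Norm-Pro alone; the last 3 were in neither library with the equal number of peaks. Of 14 housekeeping genes 13 were open in both and none in 1 library alone.

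Of 16 stemness genes 8 were open in both, 2 in Hyp-Pro alone and 2 in Norm-Pro alone (12.5% each), where 6.09% of all genes were open in Hyp-Pro alone and 11.8% in Norm-Pro alone. These were Pou5f1, which encodes Oct4 (rank 36479), and Lin28a (rank 16659) in Hyp-Pro, and Esrrb (rank 21550) and Sox2 (rank 63837) in Norm-Pro. The Sox2 peak was among the weakest of its library and was not in the equal number of peaks. Nanog had no promoter peak in either library. Of the 8 open in both, 1 had the higher percentile in Hyp-Pro. Klf4 had rank 10484 in Hyp-Pro and 2835 in Norm-Pro, and Myc rank 31415 in Hyp-Pro and 6716 in Norm-Pro. Tfcp2l1, a pluripotency factor, had rank 32296 in Hyp-Pro and 7781 in Norm-Pro. Of 16 Polycomb genes 13 were open in both (81.25%, against 43.1% of all genes). Jarid2 had rank 1818 in Hyp-Pro and 1255 in Norm-Pro, and the methyltransferase Ezh2 rank 4393 in Hyp-Pro and 772 in Norm-Pro. Cbx2 and Ring1 were open in Hyp-Pro alone and Pcgf2 in Norm-Pro alone.

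Among genes of fibroblasts and of secreted factors some promoters were open in Hyp-Pro alone and others in Norm-Pro alone. Of 20 fibroblast and matrix genes the growth factor receptor gene Pdgfrb (rank 3533), S100a4 (rank 9586) and Thy1 (rank 38784) had a promoter peak in Hyp-Pro alone. The collagen gene Col1a1 (rank 5122), Postn (rank 5801), Dcn, Pdgfra and Col6a3 had one in Norm-Pro alone. Of the 20 genes 3 were thus open in Hyp-Pro alone (6.09% of all genes) and 5 in Norm-Pro alone (11.8% of all genes), and with the equal number of peaks, which left out Pdgfra and Col6a3, 3 genes were open in each library alone. Of 18 mesenchymal transcription factor genes 9 were open in both (50%, against 43.1% of all genes), Runx1 in Hyp-Pro alone, and Runx2, Tcf21 and Osr1 in Norm-Pro alone. Of 23 genes of factors that senescent cells secrete the chemokine genes Cxcl1 (rank 15124) and Cxcl5 (rank 29503) were open in Hyp-Pro alone, and 6 in Norm-Pro alone, led by the chemokine gene Ccl2 (rank 4440), Ereg, Ccl7 and Icam1. These were 8.70% of the list in Hyp-Pro alone and 26.1% in Norm-Pro alone, and with the equal number of peaks 2 genes were open in Hyp-Pro alone (8.70%, against 8.31% of all genes) and 4 in Norm-Pro alone (17.4%, against 8.97% of all genes). Of 13 AP-1 and immediate early genes Ier2 was open in Hyp-Pro alone (rank 3632), and Fosb (rank 19823) and Fosl1 (rank 21532) in Norm-Pro alone.

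Some markers of other cell types were open at the promoter in 1 library alone. Of 10 endothelial markers 4 were open at the promoter in Hyp-Pro alone (6.09% of all genes), Esam (rank 12438), Egfl7 (rank 17306), Sox18 and Cdh5, Pecam1 in Norm-Pro alone (rank 24380) and Kdr in both. Tek, Tie1, Emcn and Cldn5 had no promoter peak in either. Of 11 epithelial markers Epcam (rank 10117) and Krt18 were open in Hyp-Pro alone, Cdh1, Grhl2 and Cldn4 in Norm-Pro alone and Cldn7 in both. Actc1 of 9 muscle markers and Comp of 7 cartilage markers were open in Norm-Pro alone and Neurog2 of 9 neural markers in Hyp-Pro alone. Open in both were Myf5 of the muscle markers, Matn3, Acan and Hapln1 of the cartilage markers, and Map2, Nes and Sox1 of the neural markers. With the equal number of peaks, where 8.31% of all genes were open in Hyp-Pro alone and 8.97% in Norm-Pro alone, Kdr, Cldn7, Myf5, Nes and Sox1 were open in Hyp-Pro alone, and Grhl2, Cldn4, Actc1 and Comp in neither library. The counts were then 5 endothelial markers in Hyp-Pro alone and 1 in Norm-Pro alone, 3 epithelial markers in Hyp-Pro alone and 1 in Norm-Pro alone, 1 muscle and 3 neural markers in Hyp-Pro alone and none of either in Norm-Pro alone, and 3 cartilage markers and 1 neural marker in both. The part of other cell types in the one-library regions was not tested.

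Shared promoters also differed in rank. Over the 12445 shared regions Spearman's rho between the rank percentiles was 0.52, given as a description, since regions of 1 library share its depth. At 33.4% of them the percentiles differed by more than 25 points. These were 1426 regions with the higher percentile in Hyp-Pro and 2736 in Norm-Pro, where the longer peak list raises percentiles. The largest differences at promoters in favour of Hyp-Pro were at S100a11, a calcium-binding protein gene (98.7 in Hyp-Pro, 0.18 in Norm-Pro), Antxr2, Wdfy3, the kinase gene Rock1 and 1110008P14Rik. In favour of Norm-Pro they were at Aqr, a helicase of splicing, Zfp512, Steap1, Lmna, which encodes the nuclear lamins A and C (2.22 in Hyp-Pro, 97.7 in Norm-Pro), and Qpctl.

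Regions in 1 library alone were also counted in the regulatory domain of each gene, which reaches from 5 kb upstream and 1 kb downstream of the start to the next domain, at most 1 Mb. With the equal number of peaks 49.8% of one-library regions over all domains were Hyp-Pro only. The domains furthest to the Hyp-Pro side were those of the cadherin gene Cdh13 (36 Hyp-Pro-only, 10 Norm-Pro-only regions) and its neighbour Hsbp1 (26 and 5, in the same order), of the channel gene Trpc7 (29 and 4) and its neighbour Spock1 (31 and 7), and of the sorting nexin gene Snx9 (22 and 3). Those furthest to the Norm-Pro side were Cwc22 (11 Hyp-Pro-only, 53 Norm-Pro-only regions) with its neighbours Ube2e3 (11 and 35) and Zfp385b (8 and 28), the chromatin organizer gene Satb1 (12 and 31) and Trib2 (7 and 26). At the Cwc22 promoter the fold over local background was 3.03 in Hyp-Pro and 2.65 in Norm-Pro. At that of Zfp385b it was 5.73 in Hyp-Pro and 5.06 in Norm-Pro. The part of local background in the Cwc22 counts was not tested. Neighbouring domains share regions and are not independent. The domain of Sox2 held 25 Hyp-Pro-only and 25 Norm-Pro-only regions, that of Sox9 23 Hyp-Pro-only and 27 Norm-Pro-only, that of Myc 22 Hyp-Pro-only and 24 Norm-Pro-only and that of Vegfa 7 Hyp-Pro-only and 5 Norm-Pro-only. By chromosome, the share of Hyp-Pro-only among one-library regions ranged from 43.7% on chromosome 18 to 53.4% on chromosome 11, against 49.7% over all autosomes.

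Outside promoters the AP-1 motif set the sets of regions apart. AP-1 factors are dimers of Fos and Jun proteins that bind enhancers of fibroblasts. TGANTCA was found in 10.8% (10.4 to 11.2) of the 200 bp windows of Hyp-Pro-only regions, in 8.14% (7.90 to 8.39) of Norm-Pro-only ones and in 21.9% (20.6 to 23.2) of shared ones. Windows 1 kb to either side held it in 5.82% for Hyp-Pro-only and 5.94% for Norm-Pro-only regions, and promoter windows of all genes in 4.09%. The Sp/Klf motif GGGGCGGG was in 1.84% (1.68 to 2.00) of Hyp-Pro-only and 1.16% (1.07 to 1.26) of Norm-Pro-only windows, and in 18.2% of all promoters. Motifs found more in Norm-Pro-only windows were the E-box CATCTG, at 17.0% (16.5 to 17.4) in Hyp-Pro-only and 17.8% (17.5 to 18.1) in Norm-Pro-only windows and 9.50% of all promoters, that of C/EBP, TTGCNNAA, at 4.78% (4.53 to 5.04) in Hyp-Pro-only and 5.90% (5.69 to 6.11) in Norm-Pro-only windows, and that of TEAD, GGAATGT, at 2.97% in Hyp-Pro-only and 3.36% in Norm-Pro-only windows, although the TEAD intervals overlapped in 100 bp windows and in windows at the summit and those of CATCTG with the equal number of peaks and without repeats. The CTCF motif was in 2.40% (2.22 to 2.59) of Hyp-Pro-only and 2.67% (2.53 to 2.82) of Norm-Pro-only windows, with intervals apart only with the equal number of peaks, at 2.47% in Hyp-Pro-only and 2.99% in Norm-Pro-only windows, and in 100 bp windows. C/EBP matches were under the level of the surrounding sequence in both sets, at 8.36% beside Hyp-Pro-only and 8.86% beside Norm-Pro-only regions. Beside the same regions, in this order, CATCTG was in 15.3% and 15.1% of windows. TEAD was in 2.76% and 2.75% there, and Sp/Klf in 0.609% and 0.595%. The AP-1 difference was 2.67 percentage points, and 2.43 with the equal number of peaks. With the conditions of the file names it was −2.81. In that reading the library labelled Hyp-Pro counts as normoxic and is compared with that labelled Norm-Sen in place of that labelled Norm-Pro, and the parts of these changes were not tested.

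For the hypoxia response element the intervals of the one-library sets overlapped outside promoters. There the core (ACGTG or GCGTG) was in 19.8% (19.3 to 20.2) of Hyp-Pro-only and 20.1% (19.7 to 20.4) of Norm-Pro-only windows. Windows 1 kb to either side held the core in 15.7% for Hyp-Pro-only and 14.2% for Norm-Pro-only regions. The longer form TACGTG, which contains the core, was in 1.92% (1.76 to 2.09) of Hyp-Pro-only and 1.90% (1.78 to 2.03) of Norm-Pro-only windows, close to 1.90% and 1.81% in the windows beside them. At promoters the core was in 45.6% (44.1 to 47.0) of Hyp-Pro-only and 48.0% (46.8 to 49.3) of Norm-Pro-only windows, and with the equal number of peaks in 46.3% (44.9 to 47.7) of Hyp-Pro-only and 49.2% (47.8 to 50.7) of Norm-Pro-only windows, with intervals that no longer overlapped. Read by file name, the core was more frequent on the hypoxic side outside promoters, at 21.7% (21.3 to 22.1) of Hyp-Pro-only and 19.8% (19.3 to 20.3) of Norm-Pro-only windows. The core was in 39.8% and the longer form in 1.95% of all promoters. The Tfcp2l1 motif was in 0.625% (0.535 to 0.725) of Hyp-Pro-only, 0.629% (0.561 to 0.703) of Norm-Pro-only and 1.13% of shared windows outside promoters, and in 0.965% of all promoters. Windows 1 kb to either side of these held it in 0.408% for Hyp-Pro-only, 0.313% for Norm-Pro-only and 0.351% for shared regions.

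At promoters the ETS, CRE, NFY and NRF1 motifs, of factors that bind near start sites, were more frequent in Norm-Pro-only regions. The ETS motif CCGGAAG was in 5.27% (4.63 to 5.96) of Hyp-Pro-only, 8.46% (7.79 to 9.17) of Norm-Pro-only and 13.49% of shared promoter windows, and in 9.75% of all promoters. The cyclic AMP response element (CRE) TGACGTCA was in 0.752% (0.521 to 1.05) of Hyp-Pro-only, 1.54% (1.26 to 1.88) of Norm-Pro-only and 2.73% of shared windows, and in 2.01% of all promoters. The NFY motif GCCAATC was in 2.28% (1.86 to 2.76) of Hyp-Pro-only and 3.45% (3.02 to 3.93) of Norm-Pro-only windows, and in 5.75% of all promoters. The NRF1 motif was in 0.420% (0.253 to 0.656) of Hyp-Pro-only and 0.936% (0.715 to 1.20) of Norm-Pro-only windows, and in 1.08% of all promoters. Sp/Klf motifs were in 16.6% (15.5 to 17.7) of Hyp-Pro-only and 14.7% (13.9 to 15.6) of Norm-Pro-only windows, with overlapping intervals, and in 33.8% of shared ones. In 100 bp windows the intervals of the CRE and NRF1 motifs overlapped as well. The promoter windows also differed in base composition: 55.6% (54.2 to 57.1) of Hyp-Pro-only, 58.6% (57.3 to 59.8) of Norm-Pro-only and 81.5% of shared ones were CpG-rich, and its part in the motif shares was not tested.

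**Figure D4:**
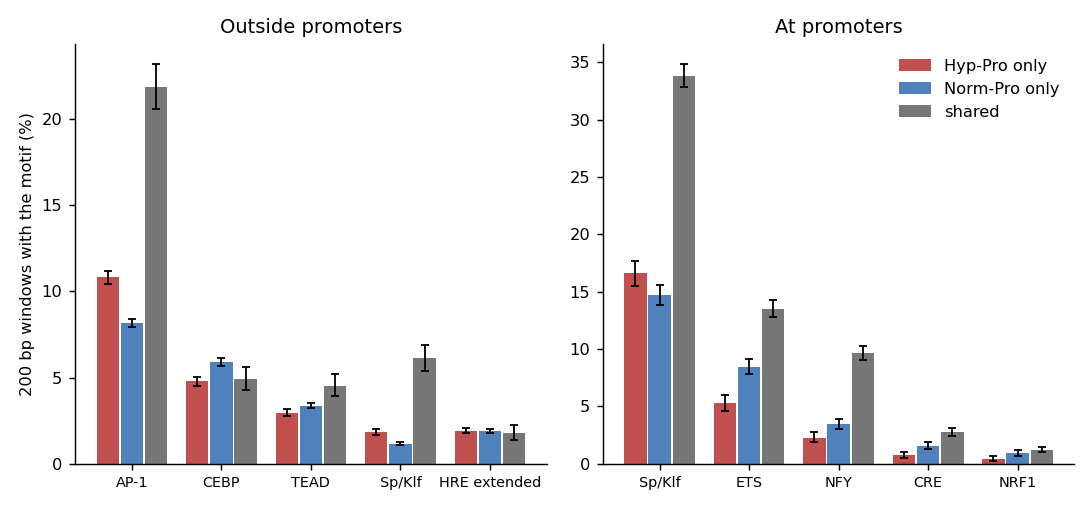
Percent of 200 bp windows with a motif on either strand (vertical axes, on different scales) outside promoters and at promoters, for regions open in Hyp-Pro alone (red), in Norm-Pro alone (blue) and in both (grey); lines are 95% exact intervals. AP-1 stands at 10.8% in Hyp-Pro-only, 8.14% in Norm-Pro-only and 21.9% in shared regions outside promoters, and ETS at 5.27% in Hyp-Pro-only, 8.46% in Norm-Pro-only and 13.49% in shared promoters.

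Regions open in 1 passage 1 library were seldom open in either late library. A Hyp-Imm peak lay on 4.27% (4.05 to 4.50) of Hyp-Pro-only, 3.97% (3.81 to 4.14) of Norm-Pro-only and 45.4% of shared regions. A Norm-Sen peak lay on 10.7% (10.4 to 11.0) of Hyp-Pro-only, 10.1% (9.87 to 10.4) of Norm-Pro-only and 72.1% of shared regions. With 37137 peaks in each of the 4 libraries the order was the other way, with a Hyp-Imm peak on 5.51% (5.24 to 5.80) of Hyp-Pro-only and 6.19% (5.90 to 6.49) of Norm-Pro-only regions, and a Norm-Sen peak on 9.28% (8.94 to 9.64) of Hyp-Pro-only and 11.5% (11.2 to 11.9) of Norm-Pro-only regions. The gap was wider for strong regions, those with a peak among the first 5000 of its library, a limit chosen after seeing the data. Of the 801 such Hyp-Pro-only regions 30.3% (27.2 to 33.7) had a Norm-Sen peak, against 54.9% (51.3 to 58.6) of the 739 Norm-Pro-only ones, and 16.5% (13.97 to 19.2) of the Hyp-Pro-only regions had a Hyp-Imm peak, against 24.9% (21.8 to 28.2) of the Norm-Pro-only ones. Promoters were 238 of the 801 Hyp-Pro-only and 361 of the 739 Norm-Pro-only strong regions. The Norm-Sen gap was present within each place, at 49.2% of Hyp-Pro-only and 74.0% of Norm-Pro-only promoters and at 22.4% of Hyp-Pro-only and 36.8% of Norm-Pro-only regions elsewhere. For Hyp-Imm the intervals overlapped within each place, at 29.8% (24.1 to 36.1) of Hyp-Pro-only and 38.0% (32.9 to 43.2) of Norm-Pro-only promoters and at 10.8% (8.39 to 13.7) of Hyp-Pro-only and 12.4% (9.28 to 16.2) of Norm-Pro-only regions elsewhere. By gene, 22.3% of the 1262 promoters open in Hyp-Pro alone and 26.2% of the 2442 open in Norm-Pro alone were open in Hyp-Imm. In Norm-Sen these were 46.8% of the promoters open in Hyp-Pro alone and 54.1% of those open in Norm-Pro alone. The background of Hyp-Imm was 0.445 reads per position and that of Norm-Sen 1.77, so shares are compared within a late library only.

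**Figure D5:**
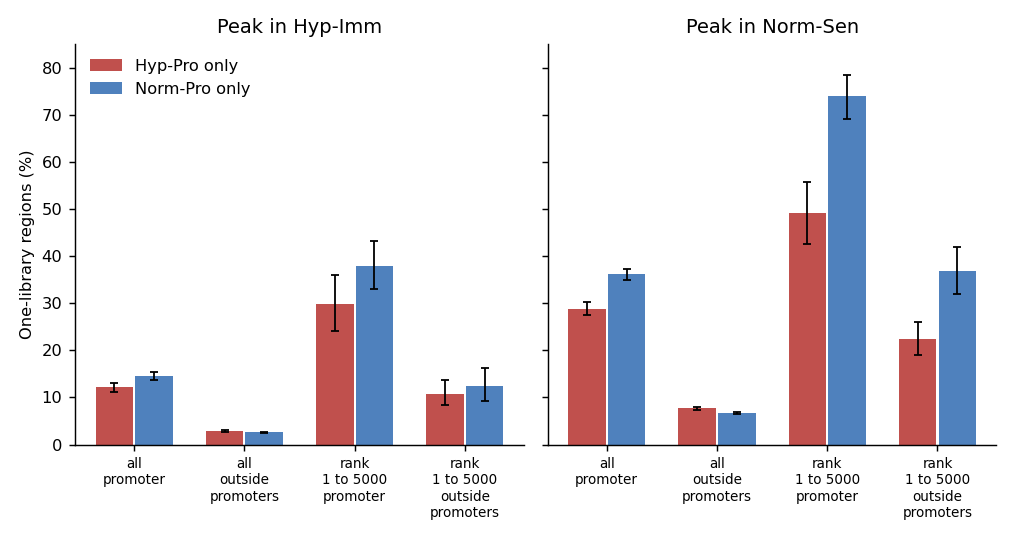
Percent of one-library passage 1 regions with a peak in Hyp-Imm (left) and in Norm-Sen (right) (vertical axis), for Hyp-Pro-only (red) and Norm-Pro-only (blue) regions at promoters and outside them, for all regions and for those with a peak of rank 1 to 5000; lines are 95% exact intervals. Strong promoter regions have a Norm-Sen peak in 49.2% of Hyp-Pro-only and 74.0% of Norm-Pro-only cases.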

How the data were processed

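Peak lists of 2 ATAC-seq libraries of MEFs at passage 1, 1 per oxygen level, were compared, and 2 late passage libraries gave a further reading. Tfcp2l1 ChIP-seq lists were not used. Reads were mapped by the authors to GRCm38 with Bowtie2. Read pairs spanning over 2 kb were dropped, read ends were shifted for Tn5, and MACS2 was run on every library by itself (FDR 0.05). The deposited fold is the ratio, made by the authors, of the summit pileup to the local background. The deposited −log10 p and −log10 q are those of MACS2, q being adjusted within the library, and the deposited score is a rescaled −log10 q that played no role here. Peaks were ranked within a library by −log10 q, and neither it nor the fold was compared between libraries. The study's read count test on split reads was not repeated, since peak lists hold no reads. Relative depth was taken from fold values under 8, a share of which (20.0% of peaks in Hyp-Pro, 31.3% in Norm-Pro) are whole steps (tolerance 0.002) above the genome-wide background.

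Groups were taken from the sample labels, which differ from the file names. Peaks of the 19 autosomes were joined by 1 bp overlap. Genes and TSS are those of protein-coding genes of GENCODE vM21. A promoter is within 1 kb of a TSS, and regulatory domains follow the rule of GREAT. Windows of 200 bp from the reference genome of the same build were searched on both strands for 19 motifs. Those of up to 8 letters were the hypoxia response element (core ACGTG or GCGTG, longer form TACGTG), the E-box CACGTG, which holds the core, the E-box CATCTG, AP-1 (TGANTCA), CRE (TGACGTCA), TEAD (GGAATGT), RUNX (TGTGGTT), Sp/Klf (GGGGCGGG), ETS (CCGGAAG), NFY (GCCAATC) and C/EBP (TTGCNNAA). Those of 10 or more letters are given by name: ARE, which can overlap AP-1, CTCF, NFI, NFkB, NRF1, the CArG box and Tfcp2l1. No mismatch was allowed. A CpG-rich window has at least 55% GC and an observed to expected CpG ratio of at least 0.65. A region between genes is outside every gene body, and an intron or exon is that of any protein-coding gene at the region's centre. The gene named with a region is that of the nearest TSS and can be another gene. Repeats are those masked in lower case in the reference.

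Regions, lists and named genes were chosen with earlier results of these data known. Named were the 10 promoter regions and 8 other regions within 100 kb of a TSS with the highest −log10 q in each library alone, 6 shared regions by mean rank, up to 4 members of each of 21 gene lists open in each library alone, markers open in both, 15 genes of the study, 5 domains and 5 shared promoters each way; other list members named in the text were chosen after their values were seen. Of the Norm-Pro-only regions outside promoters 2 are not reported here. Of 336 list genes 335 matched; Gata1 is on the X chromosome. Counting was checked on simulated data with Python 3.11.15, NumPy 2.4.6 and SciPy 1.17.1. Alternatives were an equal number of peaks, a stricter threshold, stricter overlaps, the X chromosome, the conditions of the file names, a wider promoter, and for motifs the window, its centre and repeats. Restricting late presence to peaks of rank 1 to 5000 was added after seeing the data.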

Additional observations from a re-analysis of the deposited data

Results flagged for a closer look

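Peaks of the X chromosome were left out of every comparison. They were 4.76% of the Hyp-Pro peaks (2264 of 47523) and 1.08% of the Norm-Pro peaks (746 of 69122), a share above that of the control library. At late passage they were 1.44% of the Hyp-Imm peaks and 4.44% of the Norm-Sen peaks, so that the late library with the higher share is the normoxic one by its label. By the file names the split would follow passage. The libraries labelled Hyp-Pro and Norm-Sen would both be of passage 1, and those labelled Norm-Pro and Hyp-Imm both of late passage. With the X chromosome included, 28.5% of Hyp-Pro peaks and 19.3% of Norm-Pro peaks overlapped a peak of the other library, against 29.4% of Hyp-Pro and 19.1% of Norm-Pro peaks on autosomes. The source of the difference was not tested.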

How the results depend on the processing

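No paired analysis was possible because each condition has 1 library. Peak lists hold no reads, so a region missing from a library may lie below its threshold, and depth differs between the libraries. With the equal number of peaks 14.2% of regions were shared, Norm-Pro-only regions numbered 33666, 26.2% of Hyp-Pro and 25.4% of Norm-Pro peaks were found in the other library, and promoters were 15.5% of Hyp-Pro-only and 13.49% of Norm-Pro-only regions. There a Hyp-Imm peak lay on 4.83% of Hyp-Pro-only and 4.89% of Norm-Pro-only regions and a Norm-Sen peak on 11.8% of Hyp-Pro-only and 12.4% of Norm-Pro-only regions. At a −log10 q of at least 5 the libraries shared 27.2% of regions, with 5889 in Hyp-Pro alone and 8067 in Norm-Pro alone, and 47.8% of Hyp-Pro and 39.8% of Norm-Pro peaks were found. Promoters were then 32.7% of Hyp-Pro-only and 39.3% of Norm-Pro-only regions, a Hyp-Imm peak lay on 3.24% of Hyp-Pro-only and 4.103% of Norm-Pro-only regions, the other way from all peaks, and a Norm-Sen peak on 14.5% of Hyp-Pro-only and 22.0% of Norm-Pro-only regions. When an overlap had to cover 50% of the shorter peak, 11.1% of regions were shared, 25.8% of Hyp-Pro and 16.9% of Norm-Pro peaks were found, promoters were 16.3% of Hyp-Pro-only and 12.8% of Norm-Pro-only regions, a Hyp-Imm peak lay on 5.12% of Hyp-Pro-only and 4.41% of Norm-Pro-only regions and a Norm-Sen peak on 12.3% of Hyp-Pro-only and 11.0% of Norm-Pro-only regions. With summits within 100 bp these were 10.2% shared, 23.5% of Hyp-Pro and 15.5% of Norm-Pro peaks, promoters at 19.2% of Hyp-Pro-only and 14.5% of Norm-Pro-only regions, Hyp-Imm peaks on 7.35% of Hyp-Pro-only and 5.76% of Norm-Pro-only regions and Norm-Sen peaks on 15.5% of Hyp-Pro-only and 12.8% of Norm-Pro-only regions. With the X chromosome 28.5% of Hyp-Pro peaks were found. Promoters within 2.5 kb were 17.1% of Hyp-Pro-only and 14.2% of Norm-Pro-only regions. Among regions with a peak of rank 1 to 5000, chosen after seeing the data, a Hyp-Imm peak lay on 16.5% of Hyp-Pro-only and 24.9% of Norm-Pro-only regions and a Norm-Sen peak on 30.3% of Hyp-Pro-only and 54.9% of Norm-Pro-only regions.

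With the conditions of the file names 13.3% of regions were shared, 32363 were open in Norm-Pro alone, 21.6% of Hyp-Pro and 28.3% of Norm-Pro peaks were found, and 2235 genes had a promoter peak in Hyp-Pro alone and 1542 in Norm-Pro alone. Promoters were 13.2% of Hyp-Pro-only and 15.4% of Norm-Pro-only regions, a Hyp-Imm peak lay on 12.3% of Hyp-Pro-only and 12.01% of Norm-Pro-only regions and a Norm-Sen peak on 4.21% of Hyp-Pro-only and 4.79% of Norm-Pro-only regions. Motif differences, Hyp-Pro-only minus Norm-Pro-only in percentage points, changed sign there outside promoters for AP-1 (−2.81), Sp/Klf (−0.41), C/EBP (0.25) and CATCTG (1.19), and at promoters for ETS (3.24), NFY (0.19), NRF1 (0.35) and CRE (0.27); no other setting changed the sign of these 8. Of motifs whose intervals overlapped with the labels, the hypoxia response core outside promoters (−0.31 with the labels, 1.90 with the file names), NRF1 outside promoters (−0.0191, then 0.0548) and, at promoters, Sp/Klf (1.86, then −4.64) and AP-1 (0.90, then −1.41) also changed sign, with intervals apart in the reading by file names. That reading both moves the library labelled Hyp-Pro to the normoxic side and replaces that labelled Norm-Pro by that labelled Norm-Sen, and the cause was not tested.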
